A study of Mus musculus with 52 samples.

Results

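The genes of mitosis and cytokinesis were followed in regenerating mouse liver. The set held 60 listed genes, and each was read by the probe set annotated to that gene alone that had the highest mean over all arrays. All 60 were measured, out of 18194 genes with a probe set of their own, and 41 of them had several such probe sets. The members were sorted by role into the Cdk1 engine and its regulators (12 genes), the Aurora, Polo and Nek kinases with the chromosomal passenger complex (8), the spindle checkpoint with anaphase and sister separation (9), centromere and kinetochore (7), spindle motors and microtubule proteins (9), chromosome structure (7), and central spindle and cytokinesis (8).

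Livers came from male C57Bl6/N mice aged 8 to 12 weeks on a standard diet. Partial hepatectomy, which removes most of the liver, had been performed on the animals behind 47 arrays, and 5 arrays came from untreated animals. After the operation, livers were taken at 1, 6, 12, 24 and 48 hours (3, 4, 4, 11 and 4 arrays), 3 and 4 days (4 arrays each), 1, 2 and 4 weeks (4, 2 and 4 arrays) and 3 months (3 arrays). Sham-operated animals were not analysed here, and the labels do not state that each array of a group was a mouse of its own. The p-values therefore cover only the spread between arrays, which may be technical. Values are log2 expression, a log2 difference of 1 is a doubling, and errors of differences are SE.

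A cell enters mitosis when the kinase Cdk1, bound to a cyclin, becomes active. The chromosomes are then condensed, held by the spindle at their kinetochores and watched by the spindle checkpoint, until the anaphase-promoting complex releases the sister chromatids and destroys the cyclins. The central spindle and a contractile ring finally divide the cytoplasm. In adult liver nearly all hepatocytes rest outside the cycle, and after resection they re-enter it. Many genes of this group are known to be driven late in the cycle through promoter elements called CCAAT boxes and cell cycle homology regions (CHR), the second being bound by the DREAM complex in resting cells and by B-Myb and Foxm1 in dividing ones.

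Promoter sequence was available for 48 members, in RefSeq windows (GRCm38.p6) of 250 bases before to 50 bases after the gene start. The CHR letters TTTGAA or TTCGAA, on either strand, occurred in 36 of those 48 members (75.0%), against 21.7% of the 27025 genes in the table. The CCAAT box, letters CCAAT on either strand, occurred in 33 (68.8%) against 41.1%, and 30 members (62.5%) held both, against 9.7%. The core letters of an E2F site (TTTNNCG with each N a G or a C, on either strand, with overlap with the CHR letters neither required nor barred) occurred in 8 members (16.7%) against 7.6%. Among the 14453 measured genes in the table, the shares were 17.5% for CHR, 42.0% for CCAAT, 8.2% for both and 10.5% for E2F. Counting only the bases before the start, the CHR letters were in 20 members (41.7%) against 19.6%, or 15.7% of the measured genes. In 34 of the 48 members a CHR match began within the last 100 bases before the start or the 50 after it. How often other genes hold a match so placed was not counted. These matches are descriptions of letters, and binding was not measured. Smc4, Cdca2, Foxm1, Spc24, Incenp, Cdc25c, Dlgap5, Tpx2, Kif20a, Aurkb, Pbk and Ccna2 were not in the table.

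The 160 bases before the start are shown for 5 members that rose steeply and for Pttg1, whose 48-hour values all lay under the untreated ones, with the letters of CHR and CCAAT matches in capitals, read 5′ to 3′ on the strand of the gene. The positions were chr10:69352913-69353072 (minus strand) for Cdk1, chr4:118437344-118437503 (minus) for Cdc20, chr2:164769769-164769928 (plus) for Ube2c, chr11:99024190-99024349 (minus) for Top2a, chr7:135716380-135716539 (minus) for Mki67 and chr11:43425982-43426141 (minus) for Pttg1. The first 5 carried capitals for both elements, and the stretch of Pttg1 carried none. These genes were picked by their values, and the letters did not separate rising members from the others. Among members without a call at 48 hours, Ccnf and Kif15 held CHR letters in the full window, and Pttg1 and Cit did not. Birc5, Nusap1 and Nuf2 were among the members that rose without CHR letters.
Cdk1: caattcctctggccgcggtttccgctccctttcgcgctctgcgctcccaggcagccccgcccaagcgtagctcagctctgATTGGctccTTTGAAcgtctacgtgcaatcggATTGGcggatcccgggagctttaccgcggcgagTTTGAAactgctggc
Cdc20: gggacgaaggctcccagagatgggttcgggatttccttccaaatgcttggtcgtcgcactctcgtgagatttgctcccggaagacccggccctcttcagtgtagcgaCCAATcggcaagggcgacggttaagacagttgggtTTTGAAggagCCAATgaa
Ube2c: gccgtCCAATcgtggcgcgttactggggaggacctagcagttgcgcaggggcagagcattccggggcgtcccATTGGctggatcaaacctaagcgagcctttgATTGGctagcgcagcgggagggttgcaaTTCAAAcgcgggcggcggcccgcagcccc
Top2a: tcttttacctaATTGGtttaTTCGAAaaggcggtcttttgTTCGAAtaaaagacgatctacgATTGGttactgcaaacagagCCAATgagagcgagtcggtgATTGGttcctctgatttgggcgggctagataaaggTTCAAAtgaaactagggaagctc
Mki67: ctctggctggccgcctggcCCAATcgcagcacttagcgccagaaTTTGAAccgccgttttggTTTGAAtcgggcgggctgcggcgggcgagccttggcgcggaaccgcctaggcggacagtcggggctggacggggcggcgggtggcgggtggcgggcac
Pttg1: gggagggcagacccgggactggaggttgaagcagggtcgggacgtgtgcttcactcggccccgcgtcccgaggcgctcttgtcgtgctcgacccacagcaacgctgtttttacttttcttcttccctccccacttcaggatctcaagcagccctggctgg

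Windows of 30 bases around a CHR match, in capitals, are shown for further members, because the match often fell just after the start and so outside the stretches above. They lay at chr9:70421533-70421562 (minus strand) for Ccnb2, chr2:172370521-172370550 (minus) for Aurka, chr2:69206172-69206201 (minus) for Spc25, chr1:189688067-189688096 (minus) for Cenpf, chr11:40733412-40733441 (minus) for Hmmr, chr7:127042420-127042449 (minus) for Kif22, chr3:27153822-27153851 (minus) for Ect2 and chr7:80294434-80294463 (plus) for Prc1. All but Kif22, which held the reverse complement TTCAAA, showed TTTGAA on the strand of the gene.
Ccnb2: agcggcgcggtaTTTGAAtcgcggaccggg
Aurka: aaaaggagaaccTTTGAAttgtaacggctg
Spc25: ggcggtggagagTTTGAAattgaaagactg
Cenpf: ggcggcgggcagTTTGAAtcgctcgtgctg
Hmmr: agttgaggtaaaTTTGAAttcaggcgagct
Kif22: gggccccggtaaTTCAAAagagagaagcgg
Ect2: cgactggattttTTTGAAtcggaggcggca
Prc1: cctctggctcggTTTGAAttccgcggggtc

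Some arrays and controls bear on what follows. Over the 2000 most variable genes, the correlation of 4-week replicate 1 with the rest of its group was -0.50, and with the mean of the 12-hour arrays 0.941. For 1-week replicate 4 these were -0.28 and 0.38. At 24 hours, replicates 9, 10 and 11 carried signal of Xist, a transcript of female cells, against their label. The hybridization controls, spiked after the RNA was labelled, had a mean of 10.85 in untreated arrays, 10.38 at 48 hours and 9.85 at 1 week, and so moved with the groups. The 3' minus 5' difference of Gapdh, a sign of RNA quality, also moved with them. Its mean was 1.61 (1.12 to 2.56) in untreated arrays, 1.04 (0.75 to 1.31) at 48 hours, 0.65 (0.40 to 0.81) at 3 days and 0.65 (0.58 to 0.72) at 1 week, and the arrays of the last 2 groups all lay below every untreated one. The 10 hepatocyte markers had a mean level of 12.66 to 12.84 on the untreated arrays and 12.68 to 12.94 at 48 hours.

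Few members were called during the first day, 54 of 60 stood above untreated liver at 48 hours and again at 3 days, and fewer did at 4 days and 1 week. Calls are those with adjusted p below 0.05 (limma, Benjamini-Hochberg over all genes). No member was called higher than untreated at 1 hour, where 3.67% of all genes were, at 6 hours (11.4% of all genes) or at 12 hours (17.9%). At an unadjusted p under 0.05, the counts of higher members were 0, 0 and 2. The SE was set by the spread over all groups, so small early rises could be missed. For Ccnb2 the SD was 0.42 in untreated liver and 0.19 at 6 hours, while the SE of their difference was 0.72. Fits of only the groups compared called some members higher at these times, as listed in the closing section. At 24 hours 5 were higher and 3 lower, against 18.9% and 12.8% of all genes. At 48 hours 54 of 60 were higher and 0 lower, against 17.4% and 13.4% of all genes. At 3 days 54 were higher and 3 lower, against 21.7% and 17.7%. At 4 days 44 were higher and 3 lower, against 18.8% and 14.1%. At 1 week 28 were higher and 3 lower, against 21.8% and 14.9%. None was higher at 2 weeks (2.8% of all genes), 4 weeks (9.33%) or 3 months (16.7%), where unadjusted p-values under 0.05 gave 2, 1 and 1. At 2 weeks there were only 2 arrays, and the median SE of the members was 0.61. The members' medians on these arrays, 4.02 and 4.30, lay above the untreated 3.68 to 3.93. The missing calls at 2 weeks therefore do not show a return to the untreated level. The median log2 difference of the 60 from untreated went from 0.41 at 24 to 3.50 at 48 hours, then to 3.04 and 1.78 on days 3 and 4 and to 1.00 after a week, while that of all genes lay between -0.04 and 0.02 at these times.

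**Figure D1:**
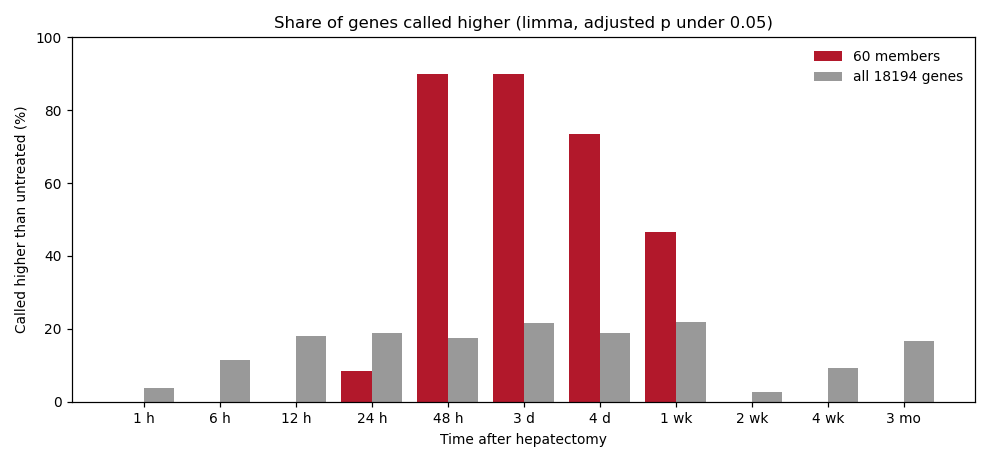
Share of genes called higher than untreated liver (%, limma, adjusted p under 0.05) at each of 11 times, for the 60 mitosis and cytokinesis genes (red) and all 18194 genes (grey). The members reach 54 of 60 at 48 hours and 3 days and fall to 28 at 1 week, while the share of all genes stays at or below 21.8%.

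In bulk RNA, a change in the number of dividing cells and a change in RNA per cell cannot be told apart. In untreated liver the mean of 36 members lay under the median of all probe sets on those arrays (4.04), a level at which a probe set cannot be distinguished from one without its target. For these genes the fold at 48 hours was computed against that median and is a lower bound.

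**Figure D2:**
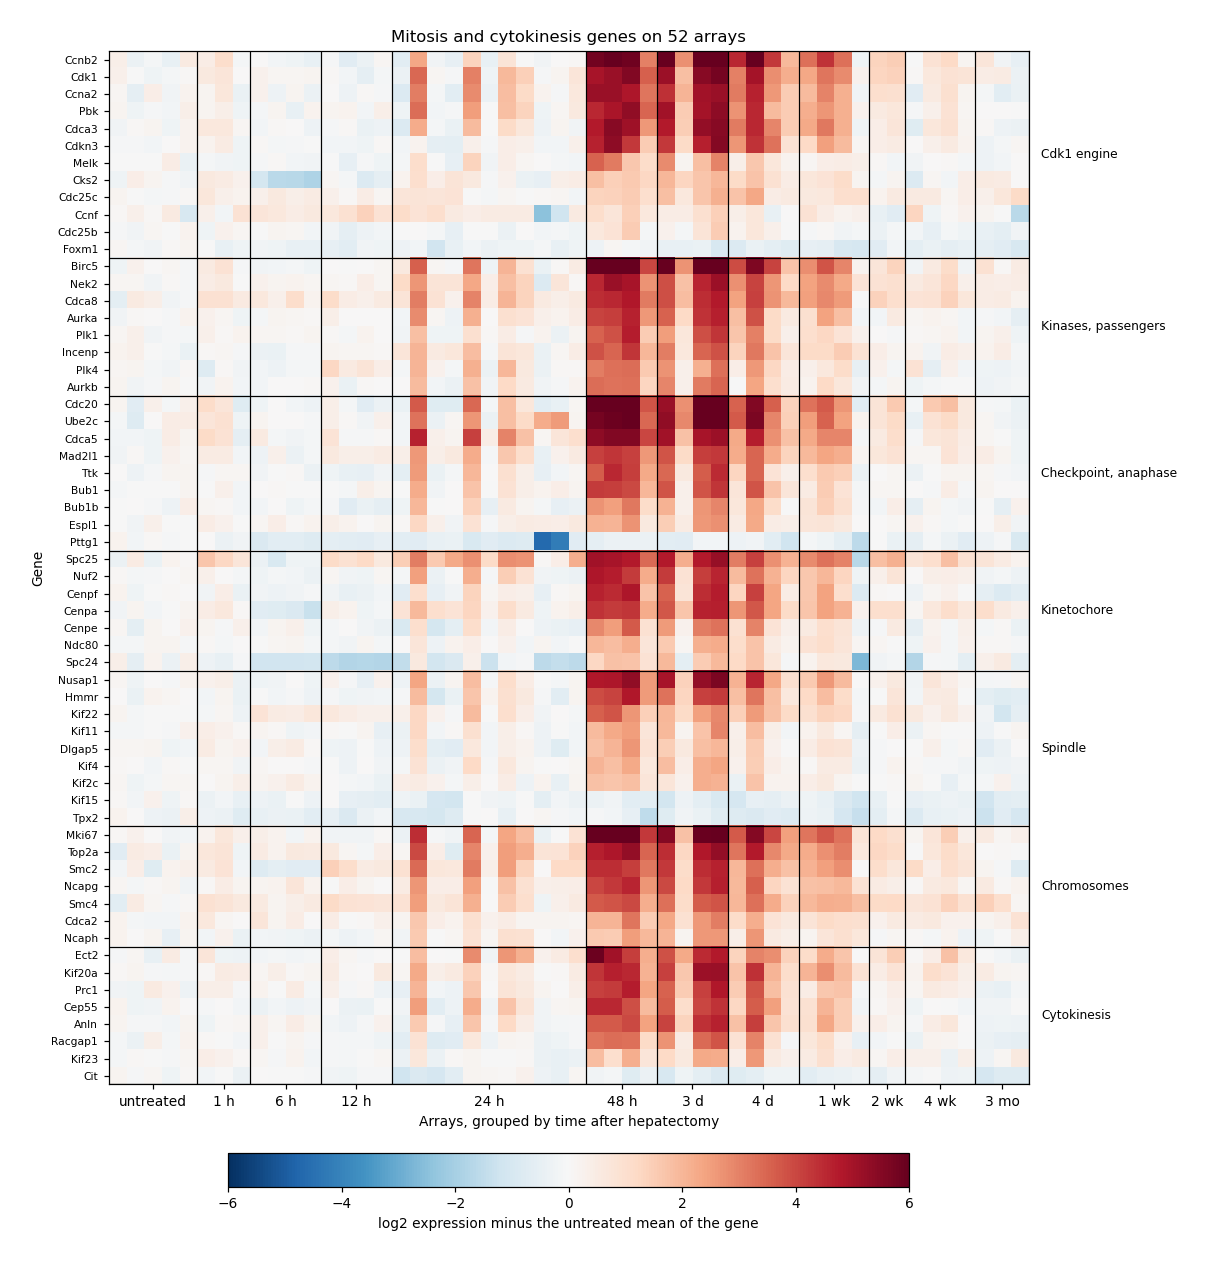
Log2 expression of the 60 genes on each of the 52 arrays minus the untreated mean of the gene (colour scale from -6 to 6), with genes in 7 roles and arrays grouped by time. Red fills the 48-hour and 3-day arrays in all 7 roles, except for Ccnf, Foxm1, Pttg1, Kif15, Tpx2 and Cit, and a few arrays within a group stand out as paler or darker across most genes.

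Among the Cdk1 engine and its regulators, 10 of 12 were higher at 48 hours, with a median log2 difference of 3.14. Cdk1, the kinase that drives entry into mitosis, read 4.86, 4.57, 4.33, 4.46 and 4.64 on the untreated arrays and 9.53, 9.75, 10.13 and 8.18 at 48 hours. Every 48-hour value lay above every untreated one, and replicate 4 was the lowest of its group. The difference was 4.83 ± 0.65 (adjusted p = 5.3e-07, limma). Ccnb2, a B-type cyclin that activates Cdk1, read 3.48, 2.76, 3.00, 2.69 and 3.63 in untreated liver and 8.91, 9.62, 8.96 and 6.15 at 48 hours. Its difference of 5.30 ± 0.72 (adjusted p = 5.8e-07) was without overlap between the groups. Ccna2, cyclin A2, which acts in S phase and early mitosis, rose by 4.61 ± 0.65 on the log2 scale. Cks2, a small subunit of cyclin-Cdk complexes, was well expressed before the operation, at 7.80, 8.47, 8.23, 7.98 and 7.85. It rose to 9.87, 9.50, 9.65 and 9.33, a difference of 1.52 ± 0.26 (adjusted p = 1.7e-05) with little spread.

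The 8 kinases and passenger proteins were all higher at 48 hours, by 2.82 to 5.74. Aurkb, the kinase of the passenger complex, read 2.74, 2.35, 2.49, 2.76 and 2.55 in untreated liver, where it was under the median of all probe sets, and 5.95, 5.85, 5.88 and 3.89 at 48 hours. The fourth 48-hour array stood apart from the other 3 but above every untreated one. The difference was 2.82 ± 0.46 (adjusted p = 1.3e-05, limma), or at least 2.55-fold against the median of all probe sets. Birc5, survivin, which docks that complex on the chromosomes, differed by 5.74 ± 0.72 and reached 8.89, 9.33, 9.06 and 6.81. Cdca8, borealin, another subunit of the complex, differed by 4.22 ± 0.53, and Nek2, a centrosome kinase, by 4.33 ± 0.53.

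Of the 9 genes of checkpoint, anaphase and sister separation, 8 were higher at 48 hours. Cdc20, the activator of the anaphase-promoting complex, read 4.52, 3.67, 4.65, 4.24 and 4.66 in untreated liver and 10.59, 10.48, 10.74 and 8.12 at 48 hours. The groups did not overlap, and the difference of 5.64 ± 0.82 (adjusted p = 1.8e-06, limma) was 49.7-fold, its untreated mean of 4.35 lying above the median of all probe sets. Ube2c, the ubiquitin-conjugating enzyme of the same complex, differed by 5.33 ± 0.71 (at least 22.5-fold), and Cdca5, sororin, which protects the cohesion of sister chromatids, by 5.11 ± 0.74 (at least 16-fold).

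All 7 centromere and kinetochore genes were higher at 48 hours, with a median of 3.77. Cenpf, a protein of the outer kinetochore, read 3.56, 3.05, 3.29, 3.39 and 3.36 in untreated liver and 7.97, 7.79, 8.19 and 5.04 at 48 hours, a difference of 3.92 ± 0.59 (adjusted p = 2.8e-06, limma). Nuf2 and Spc25, which belong to the Ndc80 complex that grips microtubules, differed by 4.00 ± 0.55 and 4.54 ± 0.63. Spc24, the partner of Spc25, was the weakest of the role at 1.40 ± 0.50 (adjusted p = 0.028). It read 7.07, 6.17, 6.91, 6.35 and 7.06 in untreated liver and 7.95, 8.47, 8.44 and 7.58 at 48 hours, so the groups were separate although close. Its call was lost without untreated replicate 2 or 4, without 48-hour replicate 2 or 3, and after a further quantile normalization (adjusted p = 0.084).

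Among the 9 spindle motors and microtubule proteins 7 were higher at 48 hours, with a median of 1.82. Nusap1, which bundles microtubules near the chromosomes, read 3.51, 3.14, 3.42, 3.32 and 3.62 in untreated liver and 8.23, 8.24, 8.72 and 5.97 at 48 hours, a difference of 4.39 ± 0.61 (adjusted p = 8.1e-07, limma). Hmmr, a spindle protein that also binds hyaluronan, differed by 3.83 ± 0.48, and Kif22, a kinesin that pushes chromosome arms, by 2.86 ± 0.36.

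All 7 genes of chromosome structure rose, by 1.89 to 5.83. Mki67, the Ki-67 antigen that coats mitotic chromosomes, read 3.42, 3.61, 3.37, 3.15 and 3.18 in untreated liver and 9.40, 9.91, 9.81 and 7.57 at 48 hours. The fitted difference was 5.83 ± 0.76 (adjusted p = 3.1e-07, limma). Its untreated mean lay under the median of all probe sets, against which the fold was at least 35.0. Top2a, the topoisomerase that untangles sister chromatids, read 2.50, 3.65, 3.56, 2.78 and 3.35 in untreated liver and 7.84, 8.00, 8.45 and 6.68 at 48 hours, a difference of 4.57 ± 0.65 (adjusted p = 1.1e-06). Smc2, the shared ATPase of the condensins, differed by 4.06 ± 0.56. Ncaph, a subunit of condensin I, differed by 1.89 ± 0.37 and, unlike most members, did not have its lowest 48-hour value on replicate 4 (5.46, 5.41, 6.38 and 5.82).

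Of the 8 genes of central spindle and cytokinesis 7 were higher at 48 hours, with a median of 3.57. Anln, anillin, the scaffold of the contractile ring, read 3.48, 3.23, 3.22, 3.13 and 3.48 in untreated liver and 7.01, 7.0, 7.29 and 5.72 at 48 hours, a difference of 3.45 ± 0.49 (adjusted p = 1.2e-06, limma). Prc1, which cross-links the microtubules of the central spindle, differed by 3.85 ± 0.49, and Kif20a, the kinesin that carries passenger proteins there, by 3.89 ± 0.52. Ect2, the exchange factor that activates RhoA at the cleavage plane, spread most, with 8.72, 7.88, 6.99 and 5.02 at 48 hours against 2.75, 2.94, 2.42, 3.35 and 2.75 untreated, a difference of 4.31 ± 0.58.

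**Figure D3:**
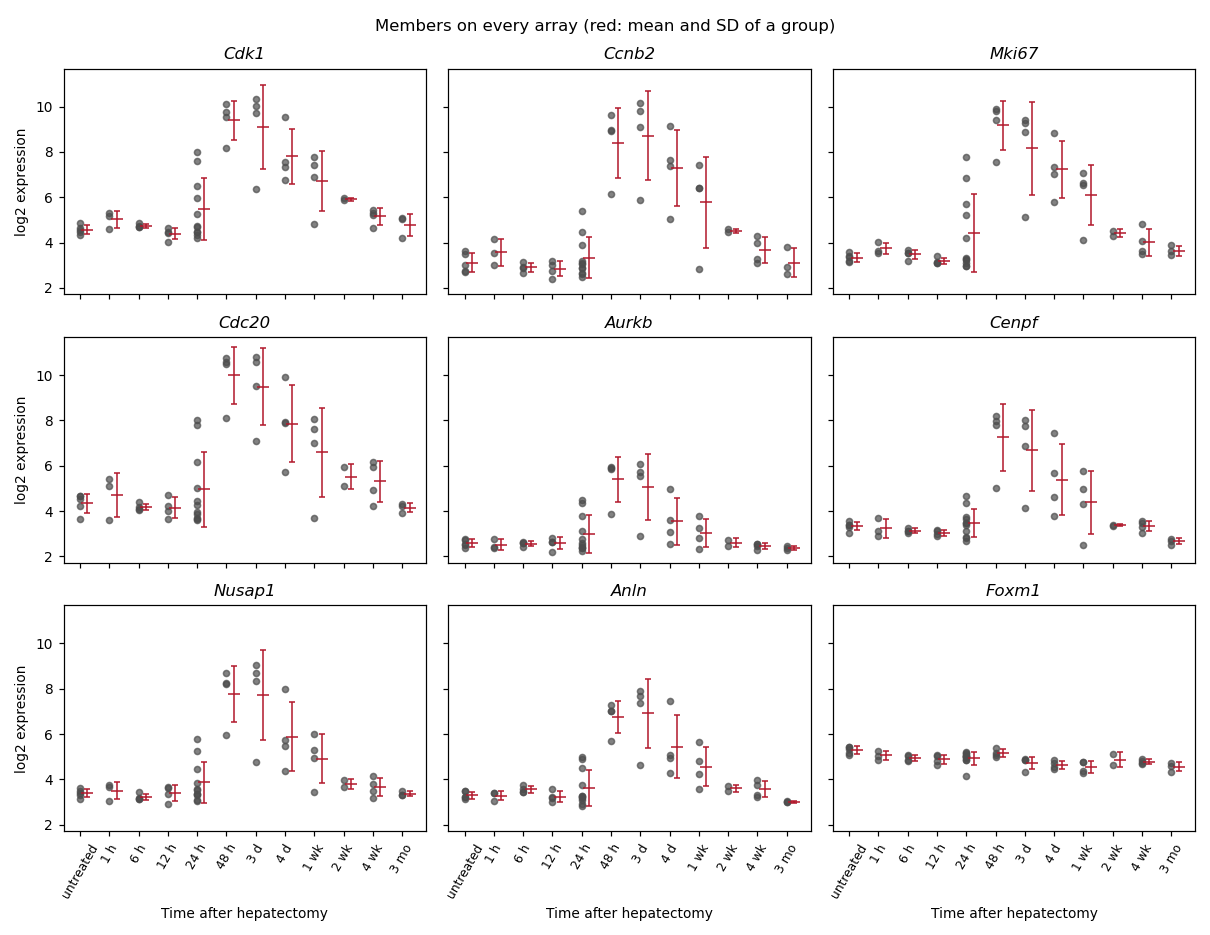
Log2 expression of 9 members on every array (points) with the mean and SD of each group (red) over untreated liver and 11 times. Cdk1, Ccnb2, Mki67, Cdc20, Aurkb, Cenpf, Nusap1 and Anln reach their highest means at 48 hours or 3 days, with 1 low array in each of those groups, while Foxm1 stays between 4.14 and 5.45.

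The probe sets used for 6 members gave no call at 48 hours. Ccnf, the cyclin F subunit of a ubiquitin ligase, differed by 0.96 ± 0.44 (adjusted p = 0.09, limma). Foxm1, a transcription factor of late cell cycle genes, read 5.41, 5.16, 5.08, 5.36 and 5.45 in untreated liver and 5.01, 5.40, 5.15 and 5.07 at 48 hours, overlapping, with a difference of -0.14 ± 0.15 (adjusted p = 0.52). Pttg1, securin, which holds separase inactive, read 10.34, 10.50, 10.53 and 10.53 at 48 hours, all under the untreated 11.07, 10.69, 10.93, 10.81 and 10.84. Its difference of -0.39 ± 0.52 was not called (adjusted p = 0.59), since the SE is set by the spread over all groups. The kinesin Kif15 stood at -0.45 ± 0.19 (adjusted p = 0.065), Tpx2, the targeting factor of Aurora A, at -0.56 ± 0.25 (adjusted p = 0.08) and Cit, citron kinase of the midbody, at -0.35 ± 0.20 (adjusted p = 0.18).

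Other probe sets of some of these genes read differently. When all probe sets were tested, 101 of the 135 of the members were higher at 48 hours and 2 lower, and 56 members had at least 1 that was higher. For Tpx2, 2 of 4 probe sets rose, by 3.16 ± 0.40 and 2.65 ± 0.40, from untreated means of 2.71 and 2.23. The set used for Tpx2, with the highest mean over all arrays, had an untreated mean of 4.23. For Foxm1, 1 of 4 sets rose, by 1.30 ± 0.26, from 3.71 to 5.02. The 2 lower calls were a set of Pttg1 (-0.65 ± 0.19) and a set of Cit (-0.65 ± 0.13). When the probe sets of a gene were averaged instead, the differences at 48 hours were 0.24 for Foxm1 and 1.29 for Tpx2, so the direction of both depends on the probe set.

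Before 24 hours the calls made against untreated pointed down. At 6 hours Cks2 read 7.02, 6.47, 6.41 and 6.21, under every untreated array, and was lower by -1.54 ± 0.26 (adjusted p = 1e-05, limma), the only member called there, against 10.5% of all genes called lower. Against 1 hour it was lower by -1.99 ± 0.29 (6.44% of all genes lower), and from 6 to 12 hours it rose by 1.20 ± 0.27 to 8.20, 7.95, 7.22 and 7.55 (adjusted p = 0.0018, 7.39% of all genes higher). At 12 hours Spc24 read 5.15, 4.95, 5.00 and 4.97, also under every untreated array, and was lower by -1.69 ± 0.50 (adjusted p = 0.0073). Foxm1 was the other member called lower at 12 hours (-0.40 ± 0.15, adjusted p = 0.038), against 12% of all genes.

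At 24 hours the 11 arrays differed widely, and 5 members were higher. Spc25 ranged from 4.30 through a median of 6.44 to 7.33, against 3.84 to 4.72 untreated, and was higher by 1.86 ± 0.51 (adjusted p = 0.0041, limma). Smc2 ranged from 3.96 through 5.11 to 7.30 and was higher by 1.40 ± 0.45 (adjusted p = 0.015). Top2a ranged from 2.43 through 3.99 to 7.11 (1.32 ± 0.52, adjusted p = 0.047), Cdca8 from 3.83 through 4.33 to 6.63 (1.20 ± 0.43, adjusted p = 0.028) and Smc4, a second condensin ATPase named here after its value was seen, was higher by 0.91 ± 0.35 (adjusted p = 0.039). In all 5 the arrays overlapped with the untreated ones. Cdk1 stood at 0.91 ± 0.52 and Mki67 at 1.07 ± 0.61, both with an adjusted p of 0.18, Mki67 with a median of 3.31 and a highest value of 7.77.

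Replicates 2 and 5 were the highest pair of the 11 in 46 of 60 members. Over the most variable genes, both had a correlation of 0.20 with the rest of their group. They correlated best with the 48-hour arrays, at 0.57 and 0.55. Replicate 1 correlated best with the 12-hour arrays (0.44), and the remaining 24-hour arrays with their own group (0.35 to 0.64). The median of the members was 5.78 on replicate 2, 5.33 on replicate 5, 4.85 on replicate 7 and 4.50 on replicate 8, and 3.61 to 4.12 on the other 7, of which 4 lay within the untreated range of 3.68 to 3.93. The 28 replication genes were also highest on replicates 2 and 5, with medians of 7.56 and 7.20. Without those 2 arrays, 1 member, Spc25, was called higher (1.62, adjusted p = 0.014). Without replicate 2 alone, replicate 5 alone, or untreated replicate 1, 3, 4 or 5, the count was 2 in each case, without 24-hour replicate 7 it was 3, without 3-day replicate 2 it was 8, and without the 3 arrays with Xist signal it was 11. From 12 to 24 hours no member passed the test, against 5.13% of all genes higher, and 2 did at an unadjusted p under 0.05.

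The 3 members lower at 24 hours were Foxm1 (-0.35 ± 0.12), Kif15 (-0.40 ± 0.15) and Pttg1. Pttg1 read 6.23 and 6.66 on replicates 9 and 10, which carried Xist signal, and 9.97 to 10.45 on the other 9 arrays, against 10.69 to 11.07 untreated. Its difference was -1.35 ± 0.42 (adjusted p = 0.011, limma), and -0.66 without the 3 arrays with Xist signal (adjusted p = 0.002). On the same replicates 9 and 10, Ube2c read 5.44 and 5.77, while their members' medians were 3.83 and 3.88.

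The step from 24 to 48 hours carried the rise: 54 of 60 members were higher at 48 than at 24 hours, against 3.57% of all genes, with a median difference of 2.91. First calls above untreated came at 24 hours for 5 members and at 48 hours for 49. Expressed as a share of the highest log2 rise of each of these 54 members, the group means had reached a median of 14.7% at 24 hours. Chromosome structure had reached 23.7% and the kinases and passengers 18.5%, while centromere and kinetochore had reached 6.0% and spindle motors 9.0%. Spc25 (40.9%), Smc2 (34.5%) and Top2a (28.9%) were furthest. Ccnb2 had reached 4.0%, Cenpf 3.5%, and Spc24, still under its untreated level, -56.4%. These shares are a description, the differences between roles were not tested, and on replicate 2 alone the median share was 60.7%.

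**Figure D4:**
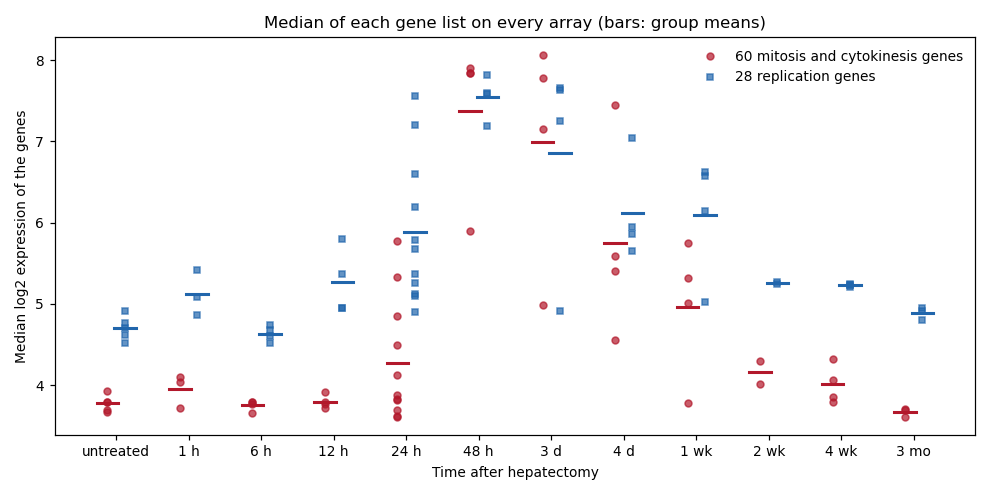
Median log2 expression of the 60 mitosis and cytokinesis genes (red circles) and of the 28 replication genes (blue squares) on every array, with bars for group means. The members' medians at 24 hours run from 3.61 to 5.78, at 48 hours 3 arrays lie near 7.9 and 1 at 5.89, and at 3 months all 3 lie between 3.61 and 3.71.

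The highest group mean fell at 48 hours for 46 of the 54 and at 3 days for 8: Ccnb2, Cdc25c, Cks2, Kif4, Cdca2, Kif20a, Kif23 and Anln. Of these, 3 belong to cytokinesis and 3 to the Cdk1 engine. The difference between 3 days and 48 hours was within the spread, with no member called lower (0.022% of all genes were) and 1 at an unadjusted p under 0.05, so the order of these times is not resolved. Cdk1 read 9.72, 6.36, 10.05 and 10.33 at 3 days, Mki67 8.87, 5.12, 9.28 and 9.42, and Anln 7.38, 4.66, 7.68 and 7.93. Replicate 2 was the low one in each of these genes and the lowest of its group in 56 of 60 members.

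The members kept a median of 88.9% of their highest rise on day 3 and 55.9% on day 4. After 1, 2 and 4 weeks the median share was 34.9%, 10.4% and 5.9%, and after 3 months -1.0%. Spindle motors were furthest down at 4 days (33.3%) and the Cdk1 engine least (65.6%). At 1 week chromosome structure kept 45.4% and spindle motors 24.3%. The last call above untreated was at 3 days for 10 members, at 4 days for 16 and at 1 week for 28. All 5 members first called at 24 hours were still called at 1 week. Of the single genes, Smc4 kept 59.8% at 1 week, Cdc25c 52.7% and Kif20a 47.5%, against 16.6% for Aurkb, 14.4% for Racgap1 and 5.1% for Kif11. The 1-week means include replicate 4, which correlated poorly with its group, and the order of these shares can depend on it. On that array Spc25 read 2.56, against 7.09 to 7.49 on the others, and Cdc25c 4.57, against 4.14 to 4.53.

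**Figure D5:**
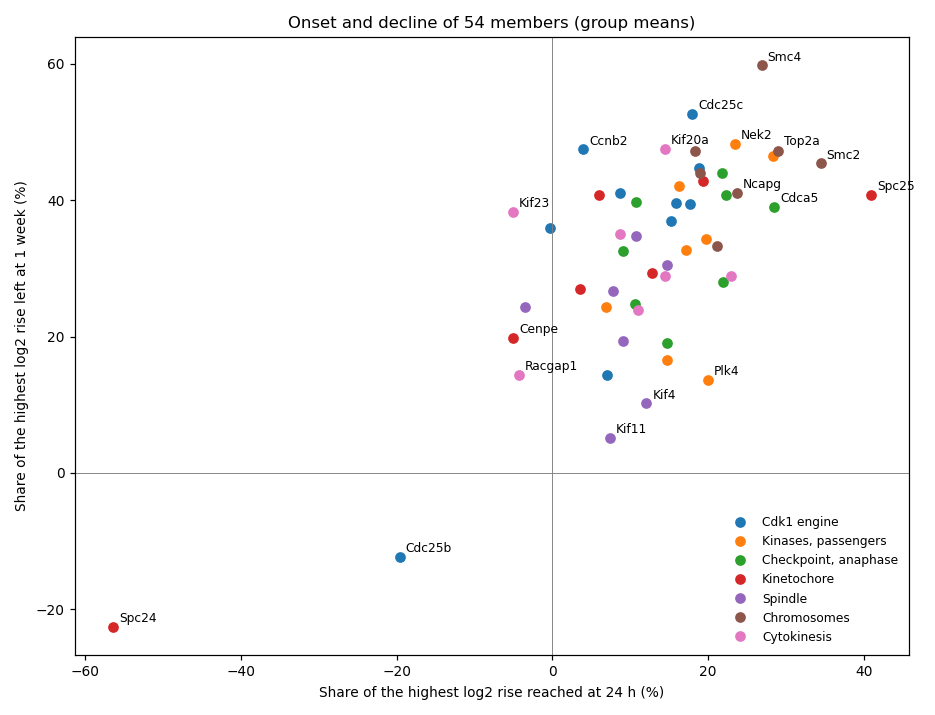
Share of the highest log2 rise reached at 24 hours (horizontal, %) against the share left at 1 week (vertical, %), from group means, for the 54 members called higher at their highest time, coloured by role. Chromosome structure genes (Smc2, Top2a, Smc4) lie to the upper right, and Spc25 is furthest right at 40.9%. Spc24 and Cdc25b lie below 0 on both axes. At 1 week Spc24 read 4.03 on replicate 4 and 6.93 to 7.33 on the others, against an untreated mean of 6.71.

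Tested against 48 hours, the decline was slow to pass the threshold. At 4 days 5 members were lower, against 0.643% of all genes: Ncapg (-1.96 ± 0.52), Hmmr (-1.95 ± 0.51), Aurkb (-1.85 ± 0.49), Melk (-1.62 ± 0.41) and Dlgap5 (-1.29 ± 0.32), with adjusted p-values of 0.035 to 0.049 (limma). Ncapg, a condensin subunit, Melk, a kinase of proliferating cells, and Dlgap5, a spindle protein, were named after their values were seen. Cdk1 stood at -1.60 ± 0.69 (adjusted p = 0.29), and 47 members had an unadjusted p under 0.05. This count moved with the arrays used, from 0 without 48-hour replicate 1, 2 or 3 or without 4-day replicate 1, 3 or 4, to 26 without 4-day replicate 2 and 30 without 48-hour replicate 4. It was 18 without 3-day replicate 2, 11 without 24-hour replicate 2 or 1-week replicate 4, 8 without 24-hour replicate 5, and 2 or 3 without many of the arrays of other groups. At 1 week 49 were lower than at 48 hours (1.66% of all genes), at 2 weeks 50 (3.39%), at 4 weeks 54 (4.19%) and at 3 months 53 (4.36%). The 1-week count was 16 without 1-week replicate 4, 24, 20 and 22 without 48-hour replicate 1, 2 or 3, and the 2-week count 5 without either 2-week array.

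Between neighbouring times after 48 hours no step was called in any member, from 3 to 4 days (0% of all genes lower), 4 days to 1 week (0.011%), 1 to 2 weeks (0.346%), 2 to 4 weeks (0%) or 4 weeks to 3 months (0.989%). Unadjusted p-values under 0.05 gave 34, 4, 0, 0 and 2 lower members in these steps. Without 3-day replicate 2, 19 members were lower at 4 days than at 3 days.

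Within the groups of the peak and decline, whole arrays lay high or low. The median of the members was 7.84, 7.90, 7.85 and 5.89 at 48 hours, 7.15, 4.99, 7.78 and 8.06 at 3 days, 5.41, 7.45, 5.59 and 4.56 at 4 days, and 5.02, 5.75, 5.31 and 3.78 at 1 week. Replicate 4 was the lowest of the 48-hour arrays in 55 of 60 members, replicate 2 the highest of the 4-day arrays in 57, and replicate 4 the lowest of the 1-week arrays in 52. The 4-day array with the high median thus lay above 2 of the 3-day arrays. At 1 week replicate 4, the array that correlated with 12 hours, lay within the untreated range, with Cdk1 at 4.83 against 6.89, 7.76 and 7.42 on the other 3. Without that array and 4-week replicate 1, a choice made after seeing the data, 34 members were higher at 1 week than in untreated liver. The 1-week count was 18, 15 and 17 without 1-week replicate 1, 2 or 3.

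At 3 months the members' medians were 3.71, 3.61 and 3.70, with 2 of 3 arrays inside the untreated range and 1 below it. The members called lower late were Foxm1 at 3 days, 4 days, 1 week, 4 weeks and 3 months, Kif15 at 3 days, 4 days, 1 week and 3 months, Tpx2 at 4 days, 1 week and 3 months, and Cit at 3 days and 3 months. At 3 months, where 13.4% of all genes were lower, the differences were -0.73 ± 0.16 for Foxm1, -0.78 ± 0.21 for Kif15, -0.99 ± 0.27 for Tpx2 and -0.85 ± 0.22 for Cit (adjusted p-values of 0.001 to 0.005, limma). At 4 weeks Foxm1 was the 1 member lower (-0.50, adjusted p = 0.02), against 5.39% of all genes, and this call was lost without 4-week replicate 1 and 1-week replicate 4 (adjusted p = 0.064). These are the probe sets that did not follow the rise at 48 hours.

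The hybridization controls fell from 10.85 in untreated arrays to 9.73 at 3 days, 9.86 at 4 days and 9.85 at 1 week, and their part in the differences from untreated was tested only as a covariate. With it, 52 members were still called at 48 hours, with a median difference of 2.88, while the share of all genes called in either direction went from 30.8% to 11.8%. At 3 days, 4 days and 1 week no member was called any more, with median differences of 1.49, 0.54 and -0.10, and 33, 2 and 0 were higher at an unadjusted p under 0.05. The loss extended over all genes, whose called share went from 39.4% to 1.03%, from 32.8% to 0.676% and from 36.7% to 0.775% at these times. For the members, the median SE rose from 0.49 to 0.75 at 3 days. The 3-month arrays had controls of the same level as those of 1 week (9.85), so they were used as a second comparator, a choice made after seeing the data. Against 3 months, 53 members were higher at 48 hours (4.36% of all genes), 52 at 3 days (3.12%), 23 at 4 days (1.36%) and 0 at 1 week (0.506%), where 30 had an unadjusted p under 0.05. The 4-day count was 8, 10 or 7 without a 3-month array and 2 without 4-day replicate 2. The calls at 4 days and 1 week thus differed between the 2 comparators, and those at 48 hours stood under both and under the covariate.

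Other genes of the same machinery moved at the same time. Of all genes, 17.4% were higher and 13.4% lower at 48 hours. At 48 hours 23 of 27 further kinetochore and centromere genes were higher and 1 lower, among them Zwilch (3.58 ± 0.55), which recruits dynein to kinetochores, and Cenpk (3.28 ± 0.52). Of 29 further spindle and centrosome genes 23 were higher, led by Aspm (3.89 ± 0.52), a spindle pole protein, and Kif20b (3.57 ± 0.55). Among 16 genes of cohesin and condensin 9 were higher, led by Esco2 (5.20 ± 0.78), which acetylates cohesin, and Ncapg2 (3.93 ± 0.57). Of 25 further regulators of entry and exit 16 were higher and 1 lower, led by Shcbp1 (4.22 ± 0.63) and Trip13 (3.54 ± 0.53), the latter a remodeller of checkpoint proteins. Of 16 genes of the anaphase-promoting complex 11 were higher, with a median log2 difference of 0.65, led by its inhibitor Fbxo5 (2.32 ± 0.37) and by Ube2s (1.32 ± 0.35). All adjusted p-values of these examples were at or below 0.0036 (limma).

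Replication genes, which act before mitosis, gave more calls at 24 hours. At that time 16 of 28 replication genes were higher than untreated and 1 lower, with a median of 0.81, against 5 of 60 members and a median of 0.41. Of all genes, 18.9% were higher and 12.8% lower at 24 hours. At 48 hours 25 of 28 were higher, led by Mcm6 (5.01 ± 0.74) and Mcm5 (4.93 ± 0.75), subunits of the replicative helicase. On the 12-hour arrays the replication medians were 5.80, 5.37, 4.95 and 4.95, all above the untreated 4.51 to 4.91, while the members' medians of 3.72 to 3.91 lay within the untreated range. The replication medians did not rise steadily before that, with 4.86 to 5.41 at 1 hour and 4.52 to 4.74 at 6 hours. The difference between these lists was not tested.

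Markers of other cell types were counted beside these changes. Of 10 Kupffer cell and macrophage markers, 9 were higher at 24 hours, 5 at 48 hours and 9 at 1 week, against 18.9%, 17.4% and 21.8% of all genes. Their mean level ran from 4.12 to 4.94 in untreated liver, 5.50 to 7.10 at 24 hours and 4.94 to 6.31 at 48 hours. The level lay above the untreated arrays at the other times as well, with 5.56 to 6.63 at 1 hour, 5.22 to 5.42 at 6 hours and 6.18 to 7.39 at 3 months. Of hepatocyte markers 2 of 10 were higher at 48 hours, of stellate cell and fibroblast markers 2 of 10, and of sinusoidal endothelial markers 0 of 10. These 3 counts lay near the share of all genes or under it. At 3 and 4 days 8 and 8 of the 10 Kupffer cell and macrophage markers were higher. So were 5 and 4 of the stellate cell and fibroblast markers, and 6 and 4 of the sinusoidal endothelial markers. Of all genes, 21.7% were higher at 3 days and 18.8% at 4 days. The mean level of the stellate cell and fibroblast markers was 6.59 to 7.46 in untreated liver, 7.18 to 7.60 at 48 hours, 7.80 to 8.08 at 3 days and 7.75 to 8.29 at 4 days. That of the endothelial markers was 5.00 to 6.06, 5.75 to 6.45, 6.38 to 6.83 and 6.12 to 6.71 in the same groups. Both lists thus overlapped with untreated at 48 hours and not at 3 or 4 days. The endothelial markers also lay above the untreated arrays at 6 hours (6.11 to 6.46), 1 week (6.18 to 6.51) and 3 months (6.27 to 6.37). Lower at 48 hours were 1 of 6 cholangiocyte, 2 of 8 lymphocyte, 4 of 7 neutrophil and monocyte and 2 of 8 erythroid markers. In addition 1 erythroid marker was higher. The mean level of the neutrophil and monocyte markers did not fall with these calls, at 4.36 to 4.59 in untreated liver and 4.23 to 4.71 at 48 hours. Of all genes 13.4% were lower at that time, and lists this small do not set counts of 1 or 2 apart from that share. Which cells carried the mitotic RNA was not tested.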

How the data were processed

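Affymetrix mouse expression arrays measured total RNA of 52 liver samples, as the labels' protocols state. The authors deposited log2 values, 1 per probe set, and the submitters' processing notes name oligo 1.52.0 and RMA as their tools. RMA equalizes the distributions of the arrays, so a shift shared by most genes is hidden, and the number of arrays limits the precision. Of 45101 probe sets, 34958 had 1 gene in the platform annotation, 932 several and 9211 none. Names were updated through Entrez identifiers to a GRCm38.p6 gene table for 18033 of 18194 genes, and 161 kept the annotation symbol.

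Group means were fitted over all 52 arrays with limma 3.58.1 in R 4.3.3 (lmFit, contrasts.fit, eBayes), so that small groups share 1 estimate of the spread. Tests were two-sided, with p-values adjusted by Benjamini-Hochberg over the genes of each contrast. The contrasts were 11 times against untreated, 10 neighbouring steps, 5 times against 48 hours and 4 added ones against 3 months. Those against untreated share the same 5 arrays. On simulated data for 48 hours against untreated with 18194 genes, 88% of 100 genes changed 2-fold were recovered. Of 100 genes changed 4-fold, 99% were recovered, and 12 unchanged genes were called. Recovery of the members, whose arrays spread more at 48 hours than in untreated liver, was not tested.

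The members, roles, marker and pathway lists and tests were chosen with earlier results of these data known. Named were, per role, the 3 members with the largest and the 1 with the smallest change at 48 hours, with Mki67, Cdk1, Ccnb2, Aurkb, Top2a, Cdc20, Foxm1 and Anln, any member called lower at any time, any called higher at 1, 6 or 12 hours or from 2 weeks on, and the 2 largest changes per pathway list. Other members were named after their values were seen. The onset order used group means of members called higher at their highest time. The lower bound of a fold took the median of all probe sets as the untreated level where the mean lay under it.

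Replicate numbers came from the titles. Arrays with the same number in different groups did not deviate together (median correlation -0.003 over 224 pairs, against 0.005 over 988 pairs with different numbers, on the 2000 most variable genes), so they were not treated as pairs. Arrays were doubted for Xist signal, for a Gapdh 3' minus 5' difference far above the others or for a negative correlation with their own group, 7 in all (24-hour replicates 1, 9, 10 and 11, untreated replicate 1, 1-week replicate 4 and 4-week replicate 1). In all, 16 kinds of alternative and 2 added after seeing the data were run, and each array was left out in turn. Promoter letters were matched with Python 3.11.15 in RefSeq windows.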

Additional observations from a re-analysis of the deposited data

Results flagged for a closer look

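Dixon's gap, the distance of the highest or lowest array to its nearest neighbour divided by the range of the group, was computed for 256 sets of arrays in groups of 4 to 10, for the members' median and for each named member. It passed the 95% limit in 30, and chance alone does so in about 1 of 20 sets. The genes of a set share their arrays, so these are not 30 separate events.

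The low array at 48 hours was replicate 4. Its gap was 0.969 for the members' median (5.89 against 7.84 to 7.90), 0.834 for Ccna2, 0.954 for Aurkb, 0.901 for Cdc20, 0.886 for Cdca5, 0.873 for Cenpf and 0.85 for Kif20a. Pttg1 was instead lowest on 48-hour replicate 1 (0.859, 10.34 against 10.50 to 10.53). At 3 days replicate 2 was low, with gaps of 0.847 for Cdk1 (6.36 against 9.72 to 10.33), 0.834 for Birc5, 0.944 for Cdca5, 0.894 for Nuf2, 0.843 for Spc25, 0.835 for Nusap1, 0.899 for Smc2, 0.872 for Mki67 and 0.834 for Anln. Foxm1 was lowest on 3-day replicate 4 (0.886, 4.35 against 4.84 to 4.91).

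Ncaph was high on 4-day replicate 2, with a gap of 0.915 (6.50 against 4.21 to 4.40), and low on untreated replicate 4, with 0.733 (3.37 against 3.88 to 4.07). At 1 week replicate 4 was low for Cdca8 (0.854), Spc24 (0.877, 4.03 against 6.93 to 7.33) and Spc25 (0.919, 2.56 against 7.09 to 7.49), the last under every untreated value. At 6 hours the members' median was lowest on replicate 4 (0.831, 3.66 against 3.77 to 3.80), Cdca5 highest on replicate 1 (0.87) and Spc25 lowest on replicate 2 (0.847). At 12 hours Birc5 (0.913) and Mki67 (0.974) were highest on replicate 4, Nek2 on replicate 3 (0.879) and Cdca5 on replicate 1 (0.863). The 12-hour gaps of Birc5 and Mki67 concern ranges of small size, 2.78 to 2.91 and 3.12 to 3.40.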

How the results depend on the processing

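The counts at 48 hours stayed within 1.5 times under every alternative run, against untreated (52 to 55 when single arrays were left out), against 24 hours (53 to 54) and against 3 months (51 to 54). The count at 3 days against untreated also did (52 to 54 without single arrays), except with the hybridization controls as a covariate. Of 26 named members called at 48 hours, 25 kept their call under all 68 settings, and Spc24 did not. Most of the 26 were named for a large change at 48 hours, which favours a stable call, so this does not describe all members. The causes of the shifts below were not tested, and the fits of fewer arrays or at a stricter threshold lose calls by construction.

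Array weights, which give unlike arrays less weight, moved most counts. They gave 1, 2, 4, 19, 43, 1, 2 and 2 members higher than untreated at 1, 6, 12 and 24 hours, 1, 2 and 4 weeks and 3 months, 1, 5 and 16 higher in the steps from 1 to 6, 6 to 12 and 12 to 24 hours, 49, 13 and 2 lower from 3 to 4 days, 1 to 2 weeks and 4 weeks to 3 months, 50 lower at 4 days than at 48 hours, and 31 higher at 1 week than at 3 months. The share of all genes called in either direction also went up under these weights, from 5.04% to 12.9% at 1 hour, 22% to 36.8% at 6 hours and 36.7% to 42.2% at 1 week, but from 31.7% to 29.4% at 24 hours. Fits of only the groups compared gave 1, 2, 7, 3, 9, 7 and 4 higher than untreated at 1, 6, 12 and 24 hours, 2 and 4 weeks and 3 months, 1 and 8 higher from 1 to 6 and 6 to 12 hours, 0 lower than at 48 hours at both 4 days and 1 week, and 34 and 14 higher than at 3 months at 3 and 4 days. At an adjusted p under 0.01, 1 and 12 were higher than untreated at 24 hours and 1 week, 0 and 22 lower than at 48 hours at 4 days and 1 week, and 6 higher at 4 days than at 3 months.

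With the hybridization controls as a covariate 0 members were higher than untreated at 24 hours, 3 days, 4 days and 1 week, 2 and 1 rose from 6 to 12 and 12 to 24 hours, and 40 were lower at 4 days than at 48 hours. The Gapdh 3' minus 5' difference as a covariate gave 1, 2, 14 and 1 higher at 12 and 24 hours, 1 week and 3 months, and a log2 difference of 0.0427 for Pttg1 at 48 hours. Averaging the probe sets of each gene gave 2 and 16 higher at 24 hours and 1 week, 1 from 12 to 24 hours, 18 lower at 4 days than at 48 hours, and reversed Foxm1 at 48 hours (0.24) and Tpx2 at 48 hours (1.29), 4 days (0.32) and 1 week (0.0034). A further quantile normalization gave 1 higher at 3 months, 1 from 12 to 24 hours and 8 lower at 4 days than at 48 hours, median centring 1 higher at 3 months and 2 lower at 4 days than at 48 hours, a trended and robust prior 2 in that last comparison, and a filter on low genes 1 higher at 3 months, 10 lower at 4 days than at 48 hours and 1 higher at 1 week than at 3 months.

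Without the 3 arrays with Xist signal, 1 and 11 were higher at 12 and 24 hours, 1 from 12 to 24 hours, and 3 lower at 4 days than at 48 hours. Without the 7 doubted arrays, 1, 8 and 1 were higher at 12 and 24 hours and 2 weeks, 3 and 5 from 6 to 12 and 12 to 24 hours, 13 and 23 lower than at 48 hours at 4 days and 1 week, and 10 higher at 1 week than at 3 months. Without 24-hour replicates 2 and 5, 1 was higher at 24 hours, 2 from 6 to 12 hours, 15 lower at 4 days than at 48 hours and 1 higher at 1 week than at 3 months. Without 4-week replicate 1 and 1-week replicate 4, 1 was higher at 2 weeks, 1 from 12 to 24 hours, 12 and 17 lower than at 48 hours at 4 days and 1 week, and 5 higher at 1 week than at 3 months. Counting only the bases before the gene start, the CHR letters were in 41.7% of members in place of 75.0%.

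With the replicate block, although the numbers did not pair the arrays, 1 and 13 members were higher than untreated at 12 and 24 hours, 1 from 12 to 24 hours, 1 lower at 3 months than at 4 weeks, 1 lower at 4 days than at 48 hours and 1 higher at 1 week than at 3 months.

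When single arrays were left out, the counts higher than untreated ran from 0 to 0 at 1 and 6 hours and at 4 weeks, 0 to 1 at 12 hours, 2 weeks and 3 months, 2 to 8 at 24 hours, 31 to 46 at 4 days and 15 to 34 at 1 week. In the steps they ran from 0 to 0 for 1 to 6 hours, 1 to 2 for 6 to 12 hours, 0 to 1 for 12 to 24 hours, 0 to 19 for 3 to 4 days and 0 to 0 for the other later steps. Lower than at 48 hours were 0 to 30 at 4 days, 16 to 52 at 1 week, 5 to 52 at 2 weeks, 50 to 54 at 4 weeks and 51 to 54 at 3 months, and higher than at 3 months were 47 to 53 at 3 days, 2 to 31 at 4 days and 0 to 4 at 1 week.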
